A study of Mus musculus with 12 samples.

Results

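Genes of 3 families that act on the extracellular matrix were followed: the matrix metalloproteinases (Mmp), the Adamts proteases with their Adamts-like relatives, and the Timp inhibitors. The members were all genes of the array whose single gene symbol starts with Mmp and a digit or with Adamts, or is one of Timp1 to Timp4. They were 42 of 18193 genes: 18 Mmp, 15 Adamts, 5 Adamts-like and 4 Timp genes, read by 78 probe sets. Each gene was represented by the probe set with the highest mean over the 12 arrays. Of the 42 members, 24 reached a floor on that mean and were tested, namely 10 Mmp, 9 Adamts, 2 Adamts-like and 3 Timp genes, and 18 lay under it.

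The samples were 12 tumours of MC38, a colon carcinoma line of the mouse, grown in the cecum of C57BL/6 mice. All of the cells carried a hairpin against Tdo2 that doxycycline (Dox) switches on, and they were either APC-KO or APC-WT, where APC is the scaffold protein that keeps beta-catenin low. There were 3 tumours each of APC-KO with Dox water, APC-KO without Dox, APC-WT with Dox water and APC-WT without Dox. Separate animals are not stated in the labels, nor is the number of knockout clones. The p-values therefore rest on the spread of these tumours alone, and that spread may be technical. Dox-treated tumours without a hairpin were not analysed here, so Dox itself and the hairpin cannot be told apart, and doxycycline is known, as background, to inhibit Mmp enzymes.

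The Mmp and Adamts enzymes are zinc proteases, made as inactive precursors, that cut collagens, gelatin, elastin, proteoglycans and cell surface proteins. Timp proteins bind the active site of these enzymes and block it. In tumours much of this activity is known to come from fibroblasts, macrophages and neutrophils as well as from the cancer cells, and in intestinal tumours Mmp7 is a known target of beta-catenin.

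Whole tumours were measured, so fewer cells of a type and less RNA per cell cannot be told apart in any result given here. All values are log2 expression values as deposited, and the array medians lay between 5.535 and 5.576. Arrays of a group correlated at 0.995 to 0.998, and no arrays held identical values. The floor was a log2 value of 5.55, the median of all probe sets that are not controls. It is a filter on the mean and not a measured background. Tdo2 could not be followed, since its brightest probe set ranged from 3.62 to 4.17 over the 12 arrays. One Apc probe set, with a mean of 7.27, was lower in the knockout by -0.94 ± 0.09 (SE) with Dox and by -0.84 ± 0.09 without it (limma, adjusted p over probe sets 3.27e-06 and 1.11e-05). The brightest Apc probe set, with a mean of 8.39, had -0.24 ± 0.07 and -0.10 ± 0.07 (limma, adjusted p over probe sets 0.0371 and 0.382). One with a mean of 6.12 had -0.49 ± 0.11 and -0.41 ± 0.11, and one at 3.13, under the floor, had -0.19 ± 0.09 and 0.03 ± 0.09. Markers of gut epithelium were sparse: Krt18, Krt19, Krt20, Vil1 and Cdx2 lay under the floor, and Epcam, Cdh1 and Krt8 above it.

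Differences are given as log2 ± SE from 1 limma fit over all 12 arrays, 3 tumours a group, with p-values adjusted over 11070 tested genes and called at 0.05. The smallest p that an exact test of 3 tumours against 3 allows is 0.1, and for that reason no such test is given.

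With Dox in APC-KO tumours, 1 of the 24 tested members passed, the collagenase gene Mmp13, which was lower. In the same comparison 60 of all tested genes passed, which is 0.542%, and 56, or 0.506%, were lower. The 3 values with and the 3 without Dox did not overlap for 4 members, all of them lower with Dox (Mmp12, Mmp13, Adamts4 and Timp2). Of all tested genes 17.7% did not overlap in either direction, so 4 of 24 is near the background. Over the 24 members the median difference was -0.05, against 0.00 over all tested genes.

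With Dox in APC-WT tumours, 0 members passed in the limma fit, beside 3 of all tested genes, or 0.0271%. At an unadjusted p under 0.05 there were 3 members, Adamts6, Adamtsl5 and Adamts12, and 1716 of all tested genes. The values with and without Dox did not overlap for 4 members, Adamts6, Adamts12, Mmp11 and Mmp14, each lower with Dox. That number is not above the 21.3% of all tested genes that did not overlap in either direction.

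Between the genotypes, 7 members passed with Dox and 7 without it. With Dox, Adamts12 and Adamtsl4 were higher in APC-KO tumours and Adamts9, Mmp2, Mmp13, Mmp12 and Adamts4 were lower. Among all tested genes 19.9% passed in that comparison, 11.9% higher and 7.99% lower in APC-KO tumours. Without Dox, Mmp9 was higher in APC-KO tumours and Adamts9, Mmp2, Adamts6, Mmp11, Adamts5 and Adamts1 were lower, beside 24.9% of all tested genes, with 13.8% higher and 11.1% lower. The values of APC-KO and APC-WT tumours did not overlap for 11 members with Dox, 7 of them lower in APC-KO, beside 41.4% of all tested genes. Without Dox they did not overlap for 7 members, 5 of them lower in APC-KO, beside 37.2% of all tested genes. Read against these shares, the number of members that passed in either direction is near the background. Lower calls were 5 of 24 with Dox and 6 of 24 without, above the 7.99% and 11.1% of all tested genes. Higher calls were 2 of 24 with Dox and 1 of 24 without, beside 11.9% and 13.8%. The members were not tested as a set, and the results are read by single gene. The comparison with Dox and the comparison of Dox in APC-KO share the APC-KO Dox arrays.

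The interaction asks whether the difference with Dox differs between the genotypes. No member passed it, and 0% of all tested genes did (0 of 11070 in limma, with 1312 at an unadjusted p under 0.05). At an unadjusted p under 0.05 were 5 members, Mmp13, Mmp12, Adamts4, Adamts12 and Adamts6, and the smallest adjusted p among members was 0.223, for Mmp13. A response to Dox particular to APC-KO tumours was therefore not shown for any member.

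**Figure D1:**
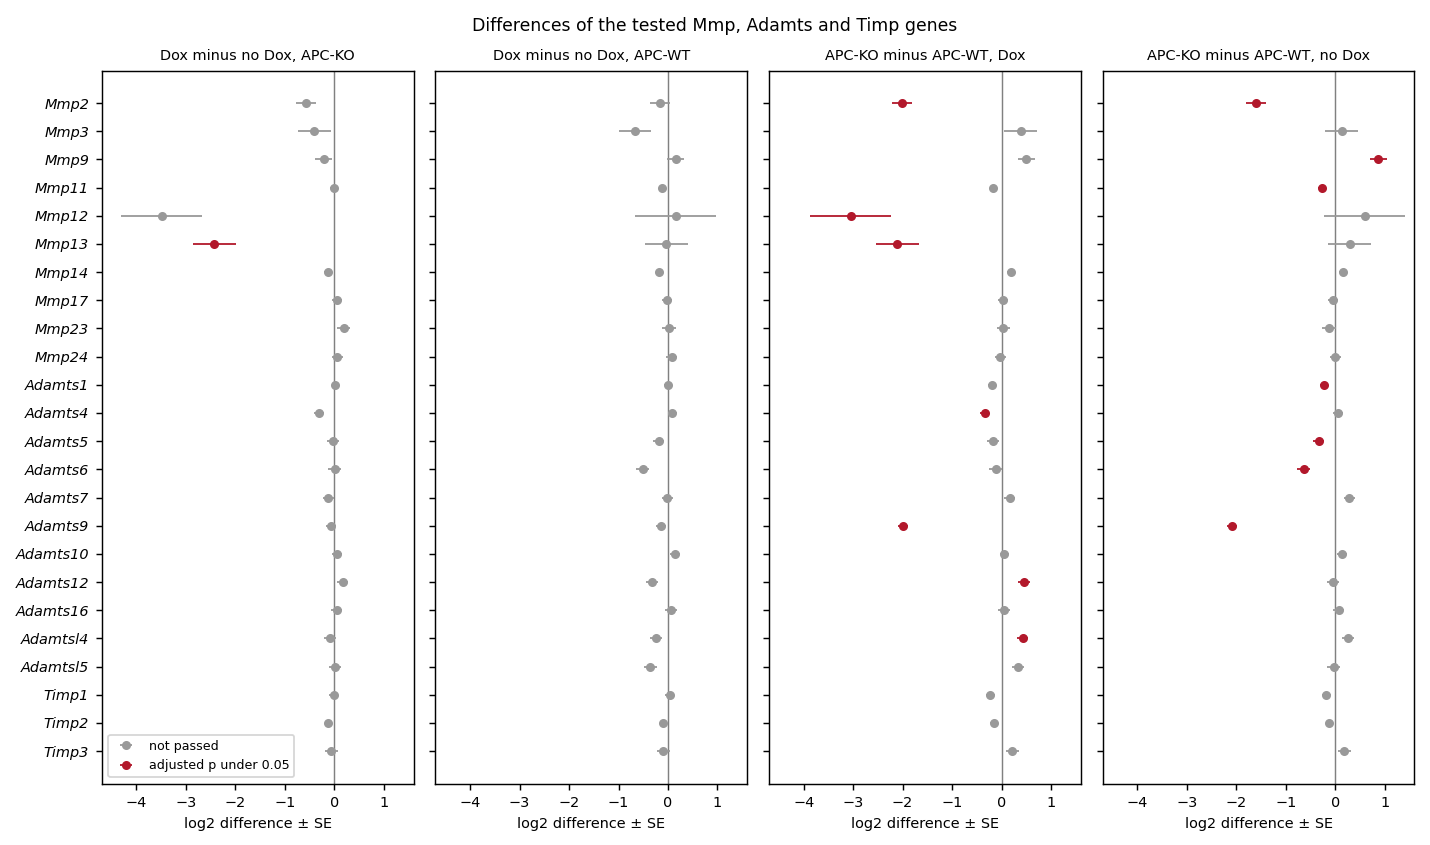
Log2 difference ± SE (x axis) of each of the 24 tested members (y axis) in 4 comparisons, with 3 tumours a group and red for adjusted p under 0.05. Mmp13 is the member in red for Dox in APC-KO tumours, none is red for Dox in APC-WT tumours, and Adamts9 and Mmp2 are red and near -2 or -1.6 in both genotype comparisons.

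Among the collagenases, the enzymes that cut fibrillar collagen, Mmp13 was the member above the floor, and in the mouse it is the main interstitial collagenase. Mmp13 had log2 values of 6.55, 5.50 and 5.22 in APC-KO Dox tumours, against 8.69, 7.58 and 8.30 in APC-KO no-Dox tumours. In APC-WT tumours it had 6.93, 7.97 and 8.70 with Dox, against 7.89, 7.36 and 8.45 without. The APC-KO Dox tumours were the low group, each below every tumour of the other groups, and 2 of them lay under the floor. Mmp13 was lower with Dox in APC-KO tumours by -2.43 ± 0.43, 5.39-fold (adjusted p = 0.0257). It was also lower in APC-KO Dox than in APC-WT Dox tumours, by -2.11 ± 0.43, 4.31-fold (adjusted p = 0.00419). With Dox in APC-WT tumours the difference was -0.03 ± 0.43, and the interaction was -2.40 ± 0.61 (adjusted p = 0.223). The call for Dox in APC-KO tumours was lost without replicate 2 or 3 of APC-KO Dox or replicate 1 or 3 of APC-KO no-Dox, with adjusted p between 0.0692 and 0.130, and in the fit without a trend, at 0.0563. The call between genotypes held without any 1 array, with adjusted p of at most 0.0231.

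Mmp12, the macrophage elastase, lies beside Mmp13 on chromosome 9. It had values of 6.64, 3.67 and 3.27 in APC-KO Dox tumours, against 8.85, 7.68 and 7.54 in APC-KO no-Dox tumours. In APC-WT tumours its values were 6.11, 7.99 and 8.63 with Dox, against 6.29, 7.49 and 8.49 without. Replicates 2 and 3 of APC-KO Dox were far under the floor, while replicate 1 lay within the range of the APC-WT tumours. Mmp12 was lower in APC-KO Dox than in APC-WT Dox tumours by -3.05 ± 0.82 (adjusted p = 0.0183). That call was lost without replicate 2 or 3 of either Dox group, with adjusted p between 0.0689 and 0.0887. It was lost too, at -1.66 and an adjusted p of 0.0738, with values under the floor raised to it, a setting added after the data were seen. For Dox in APC-KO tumours the difference was -3.49 ± 0.82 with an adjusted p of 0.0864. Without APC-KO Dox replicate 1 it was -4.55, and passed at 0.0106. The interaction of Mmp12 was -3.65 ± 1.16 (adjusted p = 0.269).

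Mmp12 and Mmp13 also varied much within the groups. The pooled within-group SD was 1.31 for Mmp12 and 0.689 for Mmp13, where the median over all tested genes was 0.0963. Next among the members were Mmp3, at 0.516, Mmp2, at 0.313, and Mmp9, at 0.269, at percentiles 99.7, 98.5 and 97.5 of all tested genes.

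The Mmp genes of chromosome 9 form a block of neighbours, in the order Mmp13, Mmp12, Mmp1b, Mmp3, Mmp1a, Mmp10, Mmp8, Mmp27, Mmp20 and Mmp7 in RefSeq, and 9 of these are members. In each of the 4 groups the tumour with the highest Mmp13 also had the highest Mmp12 and the highest Mmp10, though Mmp10 lay under the floor on all arrays of both Dox groups. Of the 11069 other tested genes, 114, or 1.03%, had their highest array in the same tumour as Mmp13 in all 4 groups. Mmp3 did so in 2 of 4 groups.

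Mmp10, stromelysin-2, had a mean of 5.37 over all arrays, under the floor, and so was not tested in the fit. Its values were 5.08, 4.63 and 4.58 in APC-KO Dox tumours, against 8.12, 4.46 and 6.43 in APC-KO no-Dox tumours. In APC-WT tumours its values were 4.63, 4.79 and 5.46 with Dox, against 5.46, 5.02 and 5.81 without. It was high in 1 APC-KO no-Dox tumour, replicate 1, and the groups overlapped. With every gene tested, its difference with Dox in APC-KO tumours was -1.57 ± 0.59 (limma, adjusted p = 0.362).

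Mmp3, stromelysin-1, which cuts many matrix proteins and activates other Mmp precursors, did not pass in any comparison. Its values were 5.40, 6.19 and 5.14 in APC-KO Dox tumours, against 6.38, 5.61 and 5.97 in APC-KO no-Dox tumours, and 4.57, 5.23 and 5.77 in APC-WT Dox tumours, against 6.43, 5.55 and 5.59 in APC-WT no-Dox tumours. These values lay near the floor and overlapped between groups. Its differences with Dox were -0.41 ± 0.33 in APC-KO and -0.67 ± 0.33 in APC-WT tumours (limma, adjusted p = 0.644 and 0.349).

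**Figure D2:**
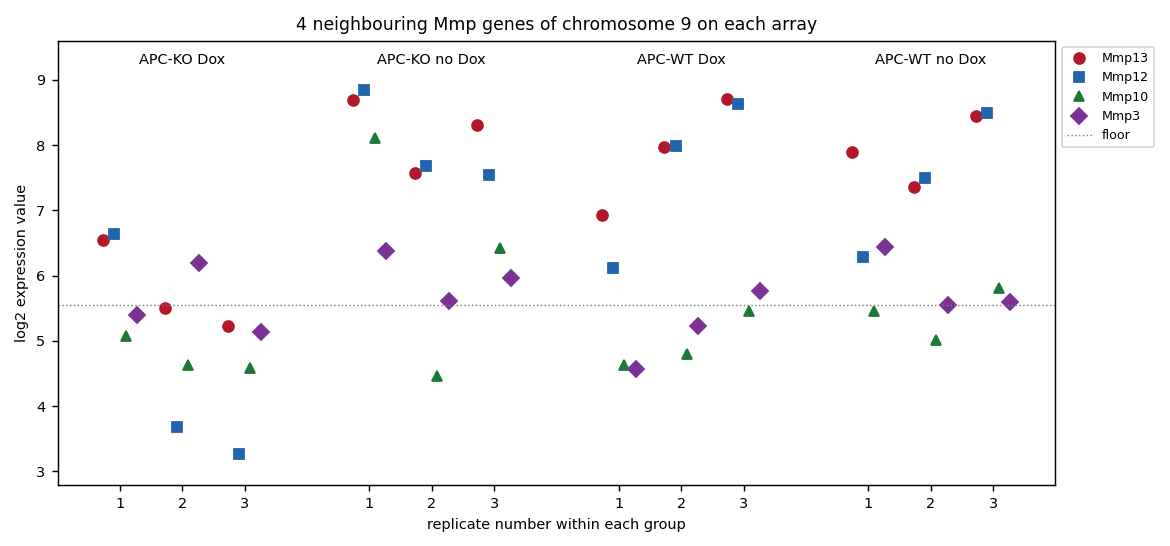
Log2 expression value (y axis) of Mmp13, Mmp12, Mmp10 and Mmp3 on each of the 12 arrays (x axis, replicate number within each group), shifted sideways for clarity, with a dotted line at the floor of 5.55. In every group the highest Mmp13, Mmp12 and Mmp10 points belong to the same tumour, and Mmp13 and Mmp12 are under the floor in replicates 2 and 3 of APC-KO Dox.

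Promoters of the block are shown because Mmp13 and Mmp12, neighbours in the block, had their highest values in the same tumours. Genes of this block are known to respond to AP-1, the Fos and Jun factors that bind TGAGTCA. The part of AP-1 in the values of these genes was not tested. Printed are the 250 bases before the RefSeq start (build GRCm38.p6), 5′ to 3′ on the strand of the gene, with TGAGTCA or its reverse complement TGACTCA in capitals. The first capital lies 35 bases before the start in Mmp13, 44 in Mmp12 (at its second start, inside the gene; the window of the first holds no match), 46 in Mmp3 and 63 in Mmp10.
Mmp13, chr9:7272264-7272513, plus strand: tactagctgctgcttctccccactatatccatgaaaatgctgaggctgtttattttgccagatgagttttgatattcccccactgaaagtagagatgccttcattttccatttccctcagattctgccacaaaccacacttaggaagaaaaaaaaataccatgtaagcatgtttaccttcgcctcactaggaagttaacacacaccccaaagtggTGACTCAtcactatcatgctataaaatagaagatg
Mmp12, chr9:7347124-7347373, plus strand: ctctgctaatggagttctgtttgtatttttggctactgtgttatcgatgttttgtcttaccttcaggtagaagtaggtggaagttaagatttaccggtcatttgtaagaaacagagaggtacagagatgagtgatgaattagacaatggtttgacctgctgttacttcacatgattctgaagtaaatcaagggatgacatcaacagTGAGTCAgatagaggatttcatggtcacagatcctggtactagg
Mmp3, chr9:7445572-7445821, plus strand: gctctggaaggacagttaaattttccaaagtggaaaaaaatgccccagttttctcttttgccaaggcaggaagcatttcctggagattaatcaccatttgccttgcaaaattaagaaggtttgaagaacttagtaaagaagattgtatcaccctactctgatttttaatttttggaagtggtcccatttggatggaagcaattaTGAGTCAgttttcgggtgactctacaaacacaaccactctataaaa
Mmp10, chr9:7502092-7502341, plus strand: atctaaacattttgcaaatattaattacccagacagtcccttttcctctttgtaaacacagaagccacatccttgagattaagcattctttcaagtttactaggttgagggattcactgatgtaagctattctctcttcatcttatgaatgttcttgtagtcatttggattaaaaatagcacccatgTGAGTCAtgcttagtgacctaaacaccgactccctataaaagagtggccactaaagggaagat

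Promoters were matched for 27 of the 42 members. The other 15, among them Mmp2, Mmp9, Adamts4, Adamts5 and Adamts6, had no promoter entry and were not searched. TGAGTCA, on either strand, was in a promoter of 7 of the 9 members of the block (Mmp13, Mmp12, Mmp1b, Mmp3, Mmp1a, Mmp10 and Mmp7), or 77.8%, and in 0 of the other 18 matched members. Over all 27025 genes with a promoter it was in 1395, or 5.16%. The letters CTTTGAT, read by the TCF partners of beta-catenin, were in 1 member, Mmp7, and in 3.72% of all genes. In Mmp7 the match lay in the window of its second start, inside the gene, as the reverse complement ATCAAAG. The window of its first start held no CTTTGAT on either strand. The motifs do not overlap in letters, a match is a description of these windows, and no match says only that the letters are not in them. Mmp7 lay under the floor, with group means between 4.79 and 4.99, and Mmp1a and Mmp1b, related genes whose signals may not be separable, lay between 2.69 and 2.90.

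Of 10 measured transcription factor genes of Mmp promoters, 0 passed with Dox in APC-KO tumours in limma, with 4 at an unadjusted p under 0.05, beside 1446 of 11070 tested genes. Fos, with the smallest p of them, had 8.29, 7.89 and 8.24 in APC-KO Dox tumours, against 8.68, 8.75 and 8.36 in APC-KO no-Dox tumours, a difference of -0.45 ± 0.18 (adjusted p = 0.289). Between genotypes Junb was higher in APC-KO tumours, by 0.50 ± 0.13 with Dox and by 0.87 ± 0.13 without (adjusted p = 0.0163 and 0.000395). Etv5 was higher with Dox (0.40 ± 0.11) and Jun without it (0.22 ± 0.07). In each comparison 2 of the 10 passed as higher, beside 11.9% of all tested genes with Dox and 13.8% without.

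Markers of neutrophils were read in the same tumours. Of 10 listed, 8 were on the array and 3 above the floor. S100a8 and S100a9 were lower with Dox in APC-KO tumours, by -4.07 ± 0.64 and -4.30 ± 0.70 (adjusted p = 0.0113 and 0.0133), and Csf3r had -0.17 ± 0.09 (adjusted p = 0.465). Cxcr2, Mpo, Elane, Ltf and Camp lay under the floor. The tumour highest in S100a8 and S100a9 was also highest in Mmp13 and Mmp12 in each group but APC-KO Dox. There it was replicate 2, where Mmp13 and Mmp12 were highest in replicate 1. The mean log2 value of the 3 genes was 4.90 to 5.90 over APC-KO Dox tumours, against 7.28 to 8.84 over APC-KO no-Dox tumours, and 6.41 to 7.55 over APC-WT Dox tumours, against 5.14 to 6.67 over APC-WT no-Dox tumours. The part of these cells in the results for Mmp13 and Mmp12 was not tested.

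Markers of macrophages, which are known to make Mmp12 and Mmp9, were all 8 above the floor, and 1, Cd14, was lower with Dox in APC-KO tumours, by -0.48 ± 0.09 (adjusted p = 0.0375). Of all tested genes 0.506% were called lower there. Of the 8 differences 7 were below 0. For 3 markers, Cd14, Cd68 and Lyz2, the groups did not overlap, beside 17.7% of all tested genes. Between genotypes with Dox 1, Lyz2, was lower in APC-KO tumours, by -0.37 ± 0.06 (adjusted p = 0.000483), beside 7.99% of all tested genes. The mean value of the 8 was 10.56 to 10.63 over APC-KO Dox, against 10.63 to 10.75 over APC-KO no-Dox tumours, and 10.61 to 10.71 over APC-WT Dox, against 10.52 to 10.60 over APC-WT no-Dox tumours. A control probe set for 18S ribosomal RNA read 9.34 to 9.61 on the APC-KO Dox arrays, against 9.80 to 10.16 on the APC-KO no-Dox arrays. On the APC-WT arrays it read 9.39 to 9.61 with Dox and 9.46 to 9.59 without, so APC-KO no-Dox was the high group. The part of macrophages and of this control signal in the Mmp12 and Mmp13 results was not tested.

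Gelatinases cut denatured collagen and basement membrane collagen. Mmp2, gelatinase A, is made mainly by fibroblasts and is activated on the cell surface by Mmp14 together with Timp2. Mmp2 had 7.09, 7.13 and 6.26 in APC-KO Dox tumours, against 8.68, 9.00 and 8.88 in APC-WT Dox tumours. Without Dox it had 7.64, 7.50 and 7.11 in APC-KO tumours, against 9.26, 8.83 and 8.98 in APC-WT tumours. Each APC-KO tumour was below every APC-WT tumour. Mmp2 was lower in APC-KO tumours by -2.02 ± 0.20, 4.06-fold, with Dox (adjusted p = 1.32e-05) and by -1.61 ± 0.20, 3.04-fold, without Dox (adjusted p = 0.000101). Its second probe set was lower by -1.81 ± 0.20 and -1.61 ± 0.20. With Dox the difference was -0.58 ± 0.20 in APC-KO and -0.17 ± 0.20 in APC-WT tumours (limma, adjusted p = 0.237 and 0.726).

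All 9 fibroblast markers were above the floor. With Dox 3 passed, Col1a1, Col3a1 and Pdgfra, and without Dox 2, Pdgfra and Fap, each of them higher in APC-KO tumours. Of all tested genes 11.9% and 13.8% were called higher. With Dox 7 differences were above 0 and 2 below, with a median of 0.23, against 0.01 over all tested genes. Without Dox 5 were above 0 and 4 below, with a median of 0.01, against 0.01 over all tested genes. Pdgfrb, Col1a2 and Lum had -0.28, -0.16 and -0.61 without Dox (limma, adjusted p = 0.0515, 0.128 and 0.233), and for Pdgfrb the groups did not overlap. Their mean value was 10.61 to 10.67 over APC-KO Dox, against 10.42 to 10.48 over APC-WT Dox tumours, and 10.35 to 10.71 over APC-KO no-Dox, against 10.41 to 10.64 over APC-WT no-Dox tumours. Of T cell markers, 4 of the 5 on the array (Cd3d, Cd3e, Cd3g and Cd8a) passed as lower in APC-KO tumours in both comparisons. Of all tested genes 7.99% passed as lower with Dox and 11.1% without. The median difference of the 5 T cell markers was -0.76 with Dox and -0.69 without. The part of these cells in the Mmp2 result was not tested.

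Mmp9, gelatinase B, is known from neutrophils and macrophages. It had 9.76, 9.79 and 9.63 in APC-KO no-Dox tumours, against 9.18, 8.30 and 9.08 in APC-WT no-Dox tumours. With Dox it had 9.47, 9.35 and 9.71 in APC-KO tumours, against 8.88, 9.02 and 9.13 in APC-WT tumours. All APC-KO tumours were above all APC-WT tumours, and APC-WT no-Dox replicate 2 was the low point. Mmp9 was higher in APC-KO tumours without Dox by 0.87 ± 0.17, 1.83-fold (adjusted p = 0.00276). With Dox the difference was 0.50 ± 0.17 (adjusted p = 0.059), and a second probe set passed at 0.60 ± 0.18 (limma, adjusted p over probe sets 0.036). The S100a8, S100a9 and Csf3r markers of neutrophils were higher without Dox too, by 2.94, 3.13 and 0.41 on the log2 scale. So were 2 of the 8 macrophage markers, Csf1r and Cd14, by 0.28 and 0.38 (limma, adjusted p = 0.00491 and 0.00867), beside 13.8% of all tested genes called higher. Of the 8 macrophage differences 7 were above 0, with a median of 0.08, and Lyz2, C1qa, Mrc1 and Adgre1 had 0.01, -0.004, 0.04 and 0.07. With Dox the genotype differences of S100a8, S100a9 and Csf3r were -2.13, -2.35 and 0.18 (limma, adjusted p = 0.0306, 0.0300 and 0.2). Of the 8 macrophage markers 5 were then below 0 and 3 above, with Csf1r at 0.06 and Cd14 at -0.27. The part of these cells in the Mmp9 result was not tested.

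Mmp11, stromelysin-3, is known from fibroblasts around carcinomas. It had 7.85, 7.74 and 7.87 in APC-KO no-Dox tumours, against 8.15, 8.12 and 8.01 in APC-WT no-Dox tumours, without overlap. Mmp11 was lower by -0.27 ± 0.07, 1.21-fold (adjusted p = 0.0165), and the call was lost without replicate 2 of APC-KO no-Dox or replicate 1 or 2 of APC-WT no-Dox, with adjusted p of up to 0.0633. With Dox its values were 7.72, 7.74 and 7.95 in APC-KO tumours, against 7.99, 8.01 and 7.93 in APC-WT tumours, which overlapped (-0.17 ± 0.07, adjusted p = 0.128).

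Of the membrane-type Mmp genes, Mmp14, Mmp17 and Mmp24 were above the floor, and they did not pass in any comparison, nor did Mmp23. Mmp14, the membrane-type enzyme that activates the Mmp2 precursor, had means of 11.15 ± 0.14 (SD, n = 3) in APC-KO Dox, 11.29 ± 0.14 in APC-KO no-Dox, 10.95 ± 0.05 in APC-WT Dox and 11.12 ± 0.11 in APC-WT no-Dox tumours. Its genotype difference was 0.20 ± 0.08 with Dox and 0.16 ± 0.08 without (limma, adjusted p = 0.104 and 0.158). Mmp17, Mmp24 and Mmp23, which are anchored in the membrane, had group means between 5.45 and 5.88, near the floor, and their differences lay between -0.13 and 0.19.

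Adamts9, which cuts versican and aggrecan and belongs to the proteoglycan-cleaving group, differed far more between genotypes than within groups. Its pooled within-group SD was 0.128, at percentile 74.3 of all tested genes. Adamts9 had 6.16, 5.84 and 6.14 in APC-KO Dox tumours, against 8.05, 7.93 and 8.17 in APC-WT Dox tumours. Without Dox it had 6.07, 6.11 and 6.15 in APC-KO tumours, against 8.33, 8.17 and 8.07 in APC-WT tumours. The genotypes were far apart, and Dox and no-Dox tumours of a genotype overlapped. Adamts9 was lower in APC-KO tumours by -2.00 ± 0.10, 4.00-fold, with Dox and by -2.08 ± 0.10, 4.23-fold, without (adjusted p = 3.10e-08 and 1.86e-08). Another probe set of the gene was lower by -2.79 ± 0.12 and -3.34 ± 0.12, and the third, at a mean of 5.52 near the floor, by -0.54 ± 0.13 with Dox and -0.32 ± 0.13 without (limma, adjusted p over probe sets 0.012 and 0.117). With Dox the difference was -0.07 ± 0.10 in APC-KO and -0.14 ± 0.10 in APC-WT tumours.

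The other tested members of the proteoglycan-cleaving group differed by less. Adamts4, an aggrecanase, had 7.74, 7.75 and 7.87 in APC-KO Dox tumours, against 8.16, 8.03 and 8.21 in APC-WT Dox tumours, without overlap. It was lower by -0.34 ± 0.09, 1.27-fold (adjusted p = 0.0187), and the call was lost without replicate 1 or 2 of APC-KO Dox or replicate 1 or 3 of APC-WT Dox, with adjusted p of up to 0.0834. In APC-KO no-Dox tumours Adamts4 had 8.13, 8.20 and 7.96, and its difference with Dox in APC-KO was -0.31 ± 0.09 (adjusted p = 0.17). A second probe set, with a mean of 7.13, differed between genotypes by -0.41 ± 0.12 with Dox and -0.33 ± 0.12 without (limma, adjusted p over probe sets 0.032 and 0.077), where the brighter one had 0.06 ± 0.09 without Dox. For Dox in APC-KO the second had -0.06 ± 0.12, and its interaction was -0.08 ± 0.17, so the probe sets disagree on these values.

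Adamts5, the other main aggrecanase of the mouse, had 7.79, 7.42 and 7.59 in APC-KO no-Dox tumours, against 7.93, 8.14 and 7.73 in APC-WT no-Dox tumours. The groups overlapped slightly. Adamts5 was lower by -0.33 ± 0.11, 1.26-fold (adjusted p = 0.0448). Its call was lost without any 1 of 8 arrays, with adjusted p of up to 0.183, and was kept without replicate 2 or 3 of APC-KO Dox, replicate 1 of APC-KO no-Dox or replicate 3 of APC-WT no-Dox. It was lost too with no floor, without a trend and with only the groups compared, with adjusted p of up to 0.0927. Probe sets with means of 7.38 and 6.22 had -0.28 ± 0.10 and -0.27 ± 0.10 (limma, adjusted p over probe sets 0.073 and 0.077).

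Adamts1, which cuts versican, had 8.43, 8.28 and 8.25 in APC-KO no-Dox tumours, against 8.49, 8.51 and 8.64 in APC-WT no-Dox tumours, without overlap. It was lower by -0.23 ± 0.08, 1.17-fold (adjusted p = 0.0449). Its call was lost without any 1 of 9 arrays, with adjusted p of up to 0.14, and was kept without replicate 2 or 3 of APC-KO Dox or replicate 1 of APC-KO no-Dox. It was lost too with no floor, with only the groups compared and with the replicate block, with adjusted p of up to 0.0851. With Dox, Adamts5 and Adamts1 differed between genotypes by -0.17 ± 0.11 and -0.20 ± 0.08 (limma, adjusted p = 0.317 and 0.0779).

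Adamts6, a protease linked to the fibrillin microfibrils of the matrix, was high in APC-WT no-Dox tumours. It had 6.02, 5.83 and 5.83 in APC-KO no-Dox tumours, against 6.83, 6.52 and 6.24 in APC-WT no-Dox tumours, without overlap. Adamts6 was lower in APC-KO tumours by -0.64 ± 0.13, 1.55-fold (adjusted p = 0.00345), and a second probe set with a mean of 4.18 by -0.53 ± 0.11. With Dox it had 5.94, 5.99 and 5.76 in APC-KO tumours, against 5.98, 6.14 and 5.93 in APC-WT tumours, and these overlapped (-0.12 ± 0.13, adjusted p = 0.567). For Dox in APC-WT tumours the difference was -0.51 ± 0.13 (adjusted p = 0.123). It passed without APC-WT no-Dox replicate 3, at 0.0154, and with array quality weights, at 0.0268.

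Adamts12, which cuts cartilage oligomeric matrix protein, had 6.06, 6.17 and 6.25 in APC-KO Dox tumours, against 5.68, 5.63 and 5.83 in APC-WT Dox tumours, without overlap. Adamts12 was higher by 0.45 ± 0.12, 1.36-fold (adjusted p = 0.0171), and the call was lost without replicate 2 or 3 of APC-KO Dox or replicate 2 of APC-WT Dox, with adjusted p of up to 0.0726. Without Dox it had 6.07, 5.76 and 6.15 in APC-KO tumours, against 6.24, 5.99 and 5.90 in APC-WT tumours, which overlapped (-0.05 ± 0.12). Its second probe set, with a mean of 2.44, differed by -0.05 ± 0.08 with Dox.

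Of the remaining Adamts proteases, Adamts7, which also cuts cartilage oligomeric matrix protein, differed between genotypes by 0.17 ± 0.11 with Dox and 0.28 ± 0.11 without (limma, adjusted p = 0.328 and 0.0827). Adamts10, which binds fibrillin, had group means between 6.75 and 6.95. Adamts16 had group means between 5.90 and 6.01. Neither passed in any comparison.

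Adamts-like proteins resemble the Adamts family but have no protease domain. Adamtsl4, which binds fibrillin, had 8.40, 8.42 and 8.62 in APC-KO Dox tumours, against 8.01, 8.15 and 8.02 in APC-WT Dox tumours, without overlap. Adamtsl4 was higher by 0.42 ± 0.12, 1.34-fold (adjusted p = 0.0225), and the call was lost without replicate 3 of APC-KO Dox or replicate 1 or 3 of APC-WT Dox, with adjusted p of up to 0.0964. Without Dox it had 8.38, 8.60 and 8.71 in APC-KO tumours, against 8.07, 8.59 and 8.23 in APC-WT tumours, which overlapped (0.26 ± 0.12, adjusted p = 0.121).

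Adamtsl5 had, in APC-WT tumours, 5.87, 6.21 and 5.82 with Dox, against 6.34, 6.55 and 6.07 without, and these overlapped. Its difference with Dox in APC-WT was -0.36 ± 0.12 (adjusted p = 0.206), and it passed without APC-WT no-Dox replicate 3, at 0.044. Its second probe set, with a mean of 6.02, had 0.05 ± 0.10 for Dox in APC-WT, and the genotype differences with Dox were 0.33 ± 0.12 and -0.15 ± 0.10 by the brighter and the second. The probe sets disagree, so no direction is given for Adamtsl5.

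**Figure D3:**
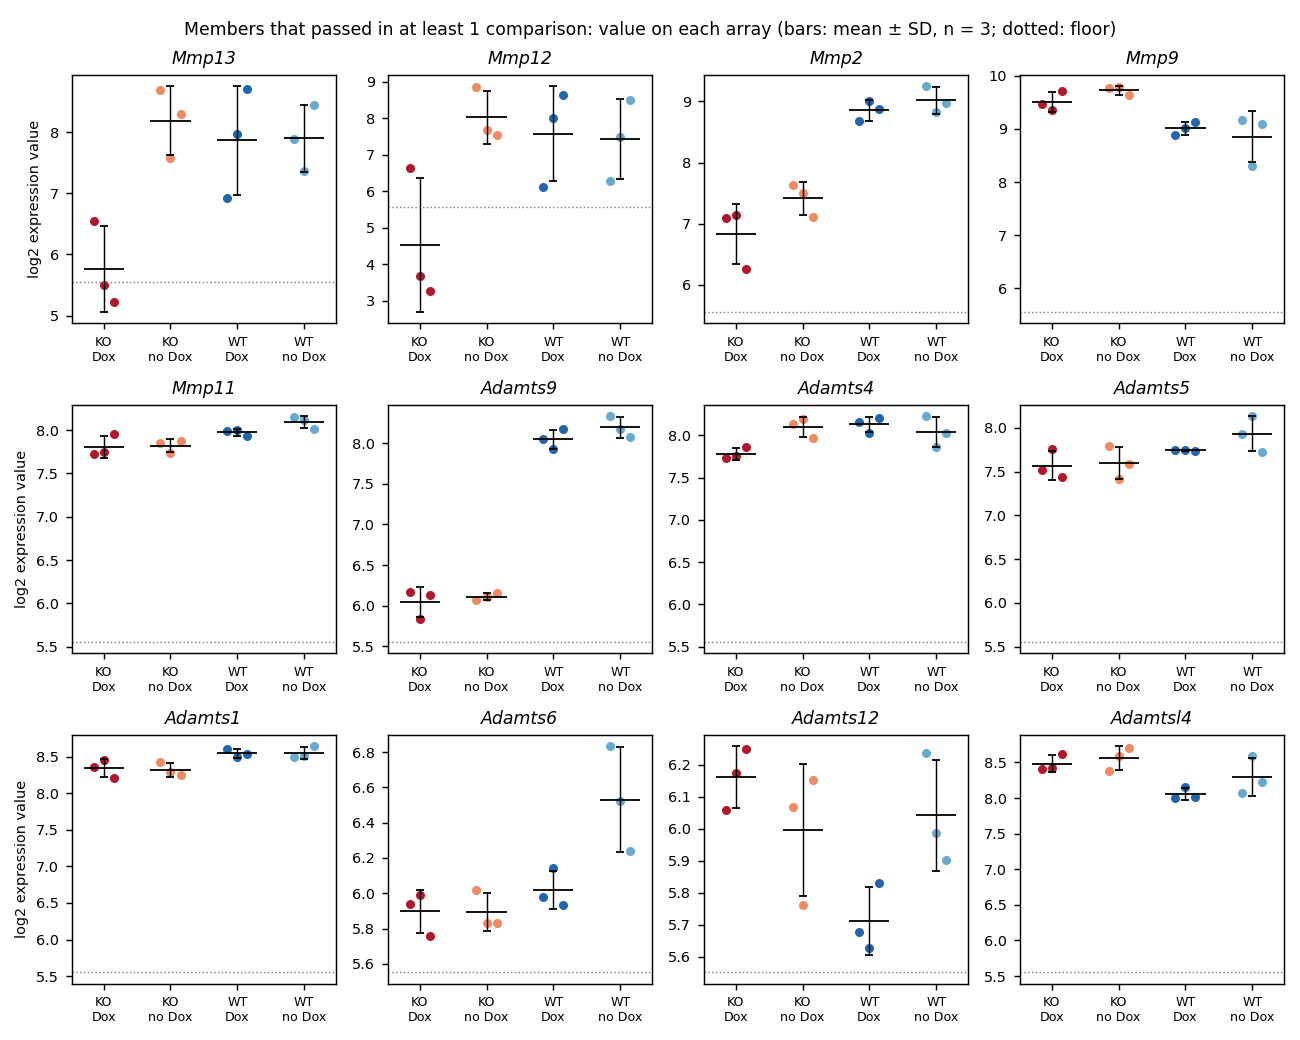
Log2 expression value (y axis) on each array of the 12 members that passed in at least 1 comparison, by group (x axis), with mean ± SD of 3 tumours, a dotted line at the floor of 5.55 and a y axis fitted to each gene. Mmp13 and Mmp12 are low in APC-KO Dox tumours, Mmp2 and Adamts9 in both APC-KO groups.

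Timp1, Timp2 and Timp3, the inhibitors above the floor, did not pass in any comparison by their brightest probe sets. Timp1, a secreted inhibitor of most Mmp enzymes, had means of 9.96 ± 0.14 (SD, n = 3) in APC-KO Dox, 9.98 ± 0.22 in APC-KO no-Dox, 10.19 ± 0.03 in APC-WT Dox and 10.16 ± 0.02 in APC-WT no-Dox tumours. Its genotype difference was -0.23 ± 0.09 with Dox (adjusted p = 0.101), with no overlap between the groups, and -0.18 ± 0.09 without.

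Timp2, which also takes part in the activation of Mmp2, differed by -0.16 ± 0.07 with Dox and -0.12 ± 0.07 without (limma, adjusted p = 0.116 and 0.201). Its 6 probe sets disagreed. The second brightest was higher in APC-KO tumours without Dox by 0.19 ± 0.05 (limma, adjusted p over probe sets 0.019), while one with a mean of 8.71 was lower with Dox by -0.49 ± 0.12 (adjusted p 0.011), so no direction is given for Timp2. Timp3, the inhibitor bound to the matrix, which also blocks Adamts enzymes, differed between genotypes by 0.22 ± 0.13 with Dox and 0.19 ± 0.13 without.

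The genotype differences with and without Dox use separate arrays. Adamts9 and Mmp2 passed in both, lower in APC-KO tumours. Mmp13 was at -2.11 ± 0.43 with Dox and 0.29 ± 0.43 without, and Mmp12 at -3.05 ± 0.82 with Dox and 0.60 ± 0.82 without, yet the interaction passed for neither. The other 3 members that passed with Dox and the other 5 that passed without it passed in 1 comparison each, with interactions that did not pass.

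**Figure D4:**
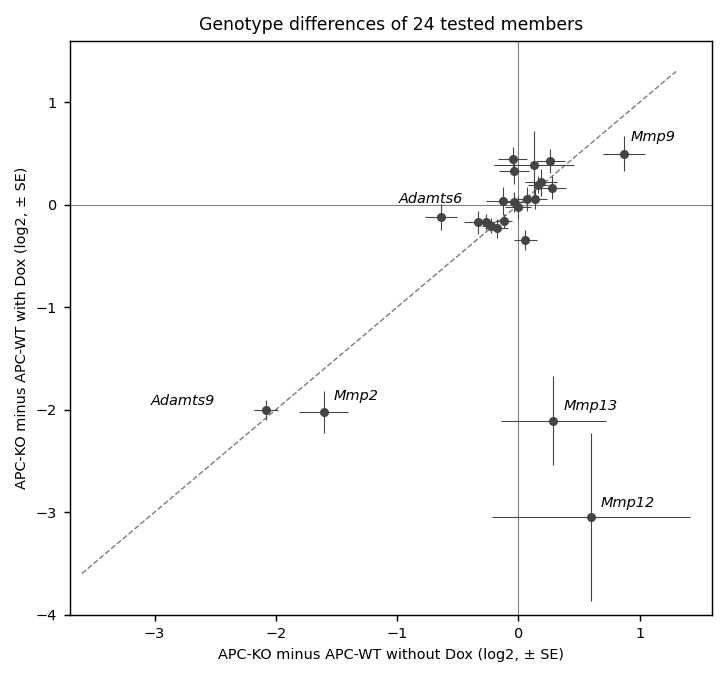
APC-KO minus APC-WT log2 difference with Dox (y axis) against that without Dox (x axis) for the 24 tested members, with SE bars and a dashed line where both are equal. Adamts9 and Mmp2 lie near the line at the lower left, while Mmp13 and Mmp12 lie well under it, with wide bars for Mmp12.

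The 18 members under the floor had means between 2.37 and 5.37. They were Mmp1a, Mmp1b, Mmp7, Mmp8, Mmp10, Mmp16, Mmp19 and Mmp20, Adamts3, Adamts8, Adamts15, Adamts18, Adamts19 and Adamts20, Adamtsl1, Adamtsl2 and Adamtsl3, and Timp4. Mmp10 was the one with any array at the floor. Without Mmp10, the largest difference between groups was 0.54 in size, for the neutrophil collagenase Mmp8, which had 3.91 in APC-KO Dox and 4.46 in APC-WT Dox tumours as means. With every gene tested, 0 of the 18 passed in limma, with a smallest adjusted p of 0.0682, and Adamts18, Adamtsl3, Mmp10 and Mmp8 had an unadjusted p under 0.05 in some comparison.

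**Figure D5:**
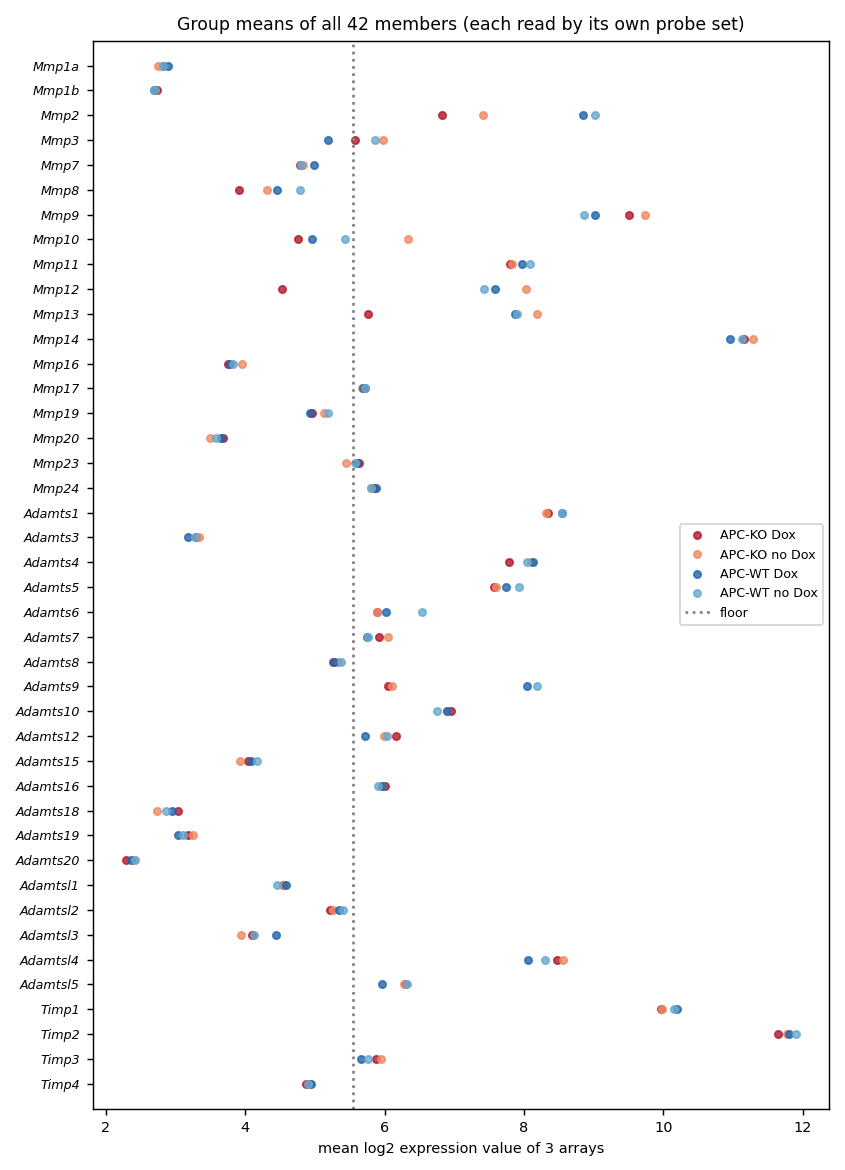
Mean log2 expression value of 3 arrays (x axis) in each group for all 42 members (y axis), with a dotted line at the floor of 5.55. Group means of the 18 untested members lie left of the line, apart from Mmp10 in APC-KO no-Dox tumours, and levels of different genes cannot be compared because each is read by its own probe set.

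Other genes of matrix proteolysis were read from lists. Beside their genotype calls, 11.9% of all tested genes were called higher and 7.99% lower in APC-KO tumours with Dox. Without Dox the shares were 13.8% and 11.1%. Of 7 plasminogen system genes, 2 were tested, and Plat, the tissue plasminogen activator, was higher in APC-KO tumours by 0.79 ± 0.09 with Dox and 0.51 ± 0.09 without (adjusted p = 6.0e-05 and 0.00157). Of 7 Adam genes, the membrane-bound relatives of Adamts, 6 were tested. Adam19 was higher in APC-KO tumours by 1.00 ± 0.08 with Dox and 1.12 ± 0.08 without, Adam17, the TNF-releasing enzyme, by 0.34 ± 0.07 and 0.25 ± 0.07, and Adam9 by 0.21 ± 0.07 with Dox. Adam8 had -0.93 ± 0.23 with Dox in APC-KO tumours (adjusted p = 0.102).

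Of 4 cathepsins, 1, Ctsl, was higher in APC-KO tumours without Dox, by 0.15 ± 0.05, beside 13.8% of all tested genes. Of 9 activators and regulators, 8 were tested. With Dox 1 passed as higher and 1 as lower, beside 11.9% and 7.99% of all tested genes. Without Dox 3 passed as lower, beside 11.1%. With Dox, Reck, a membrane-bound inhibitor of Mmp enzymes, was higher in APC-KO tumours by 0.48 ± 0.12, and Bsg, which encodes the Mmp inducer basigin, was lower by -0.25 ± 0.06. Without Dox, the procollagen-processing genes Bmp1 and Pcolce and the endocytic receptor gene Lrp1 were lower, by -0.31 ± 0.10, -0.30 ± 0.10 and -0.27 ± 0.08. None of the genes in these 4 lists passed with Dox in either genotype (limma). At an unadjusted p under 0.05 in APC-KO tumours were 1 plasminogen system gene, 2 Adam genes, 3 cathepsins and 1 regulator, and in APC-WT tumours 2 cathepsins and 1 regulator. Of all 11070 tested genes, 1446 were at such a p in APC-KO and 1716 in APC-WT tumours.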

How the data were processed

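RNA of 12 tumours was measured on Affymetrix arrays. It was extracted with Trizol, purified on columns and made into biotinylated cRNA, per the labels' protocols, and MAS5 is named, without a version, per the submitters' processing notes. The authors deposited normalized log2 expression values. The log2 unit was read from their range (1.86 to 14.16), and how they were scaled is not given in the sources used. Of 45101 probe sets, 34945 carried 1 symbol, 932 several and 9160 none, and 64 were controls. All 42 members matched RefSeq by Entrez identifier.

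Each gene was read by its brightest single-symbol probe set, and 11070 genes with a mean at or above 5.55 were tested. A group-means model with 5 contrasts was fitted over all 12 arrays with limma 3.58.1 (eBayes with a trend, 2-sided, Benjamini-Hochberg, threshold 0.05) in R 4.3.3, and was checked on simulated data. Named were all tested members, with values per array where they passed or, in a comparison where none did, for the 2 of smallest p. Members and lists were chosen with earlier results of these data known. The number of arrays limits the precision. Alternatives covered the floor, probe set choice, normalization, trend, weights, samples in the fit, replicate block and left-out arrays. Promoters came from RefSeq (GRCm38.p6). Figures used Python 3.11.15 and matplotlib 3.10.9.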

Additional observations from a re-analysis of the deposited data

How the results depend on the processing

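Of 15 called differences of single members, 7 passed without any 1 array and in every other setting that tested the gene, and 0 changed sign: Adamts9 and Mmp2 in both genotype comparisons, Mmp13 with Dox between genotypes, and Mmp9 and Adamts6 without Dox between genotypes. The count of members that passed was 0 for Dox in APC-WT (0 to 2 without 1 array, 1 with array quality weights), 1 for Dox in APC-KO (0 to 2 without 1 array, 0 with the floor at the 75th percentile or without a trend), 7 between genotypes with Dox (4 to 8 without 1 array, 4 with that floor, 12 with weights), 7 between genotypes without Dox (5 to 9, and 4 with that floor) and 0 for the interaction. That floor, at 7.81, tested 9 members, not Mmp13, Adamts9 or Adamts6, and Adamts6 was also not tested on averaging probe sets.

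Over all genes, Dox in APC-WT gave 3 calls, but 0 on averaging probe sets, 18 with only the groups compared, 653 with weights, 6 with the replicate block, 5 with values under the floor raised to it (added after the data were seen) and 0 to 418 without 1 array, the highest without APC-WT no-Dox replicate 3. Dox in APC-KO gave 60, but 35 on averaging probe sets, 29 without a trend, 36 with only the groups compared and 1 to 92 without 1 array, the lowest without APC-KO Dox replicate 3. Between genotypes with Dox there were 2205 calls, 3510 with weights and 1291 to 2354 without 1 array. The interaction gave 0, 13 with weights, 1 with values raised to the floor and 0 to 119 without 1 array, the highest without APC-WT no-Dox replicate 3. The cause of these shifts was not tested.

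Replicate numbers did not pair the samples: deviations of 18 same-numbered pairs correlated between -0.221 and 0.175, and those of 36 other pairs between -0.252 and 0.253. With the number as a replicate block, 1, 0, 7, 6 and 0 members passed for the 2 Dox comparisons (APC-KO, then APC-WT), the genotypes with and without Dox, and the interaction, and Adamts1 was lost. Signal over background limits the members under or near the floor.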
